A study of Mus musculus with 12 samples.

Results

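A set of 6 genes of protease inhibitor families was followed here in cultured aortic smooth muscle cells of mice: Serpinf1, Serpina3n, Serpinb6a and Serpinb9 of the serpin superfamily, and Tfpi and Tfpi2, which carry Kunitz domains. They were taken by symbol from the 29462 rows of the deposited table, where each of the 6 symbols stands on 1 row. That rule uses names only, but the members were chosen with earlier results of these data known. RNA was measured in 12 libraries of primary cells: 6 of wild-type C57BL/6J cells (WT) and 6 of cells from global knockouts of cystathionine gamma-lyase, or CSE (KO). CSE is the product of Cth and releases hydrogen sulfide from sulfur amino acids. Every culture of both genotypes had received angiotensin II, the vasoconstrictor hormone, at 1 uM for 24 h, so no untreated state enters the comparison. The study asked what the loss of CSE does to the transcriptome of these cells in the setting of abdominal aortic aneurysm.

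Serpins are suicide inhibitors: the target protease cuts an exposed loop of the serpin, which then snaps into a new fold and traps the enzyme. Kunitz domains are small disulfide-bonded folds that block the active site of a protease reversibly, like a cork. In the wall of the aorta such inhibitors stand against the proteases of leukocytes, of plasma and of coagulation, which can attack elastin and other matrix proteins or generate thrombin.

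Values are FPKM, fragments scaled to the length of the gene and the size of the library, so levels can be compared between genes of different length. The FPKM of a library summed to between 255538 and 281432, and depth in reads is unknown. The lowest sum was that of KO replicate 6, and every other library had at least 274174. Those genes that reached 1 FPKM in 6 or more libraries, 11831 in all, were tested with limma on log2(FPKM + 1), and a gene is said to be called, to rise or to fall at a Benjamini-Hochberg adjusted p of at most 0.05. Cth itself was at most 0.08 FPKM in any WT library and at most 0.02 in any KO library (exact permutation p = 0.143, two-sided), so these libraries carry no check of the knockout. Of 8 smooth muscle markers 2 were tested, Acta2 and Smtn, and neither was called with all libraries, while both were called lower without KO replicates 5 and 6 (log2 changes of -0.56 and -0.44, limma adjusted p = 3.94e-06 and 1.54e-06). Myh11 stood at no more than 0.03 FPKM in any library, Cnn1 at no more than 0.24 and Tagln at no more than 1.32, so the cell type rests on the labels. Acta2 was at 111 to 140.4 FPKM in WT and 75.28 to 145.52 in KO. KO replicates 5 and 6 stood apart. Across genes their correlation with KO replicates 1 to 4 was 0.947 to 0.96. It was at least 0.993 among those 4 and at least 0.992 among WT libraries. KO replicates 5 and 6 correlated with each other at 0.978, so they also differed from one another. The values of members are therefore given with and without both, and so are other calls named here that change without them. The labels do not say whether replicate libraries stem from different animals or cultures. All p-values thus measure only the spread among these libraries, and that spread may be technical.

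The 250 bases before the start site of the 3 members that were called are shown, so that the sequence in front of genes that rose together can be read side by side. They come from RefSeq (GRCm38.p6), whose table held windows for all 6 members, and capitals mark every match, on either strand, to 1 of 6 motifs: TATAAA (the TATA box), CCAAT (the CCAAT box), GGGCGG (the GC box), TGANTCA (the AP-1 site), TTCNNNGAA (the STAT site) and CACGTG (an E-box). The window of Serpinf1 is chr11:75422624-75422873, that of Serpina3n chr12:104406458-104406707, and that of the outer of both Serpinb6a start sites chr13:34002795-34003044. Serpinf1 and Serpinb6a lie on the minus strand and Serpina3n on the plus strand.
Serpinf1: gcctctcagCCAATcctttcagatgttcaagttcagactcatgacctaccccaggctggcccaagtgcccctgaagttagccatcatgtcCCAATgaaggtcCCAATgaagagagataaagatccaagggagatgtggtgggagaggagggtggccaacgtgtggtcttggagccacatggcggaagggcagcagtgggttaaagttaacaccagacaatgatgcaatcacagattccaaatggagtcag
Serpina3n: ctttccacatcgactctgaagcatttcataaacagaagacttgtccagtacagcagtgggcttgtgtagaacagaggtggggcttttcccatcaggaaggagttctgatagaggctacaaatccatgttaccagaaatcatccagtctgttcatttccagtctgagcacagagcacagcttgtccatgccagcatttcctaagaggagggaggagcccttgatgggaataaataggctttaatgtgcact
Serpinb6a: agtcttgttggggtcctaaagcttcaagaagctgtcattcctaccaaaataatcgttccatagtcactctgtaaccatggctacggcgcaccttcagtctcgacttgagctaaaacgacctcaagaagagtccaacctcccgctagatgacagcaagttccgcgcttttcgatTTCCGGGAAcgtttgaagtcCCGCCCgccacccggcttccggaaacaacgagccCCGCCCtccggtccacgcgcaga
The Serpinf1 window held 3 copies of CCAAT, a motif present in 33.8% of 32851 RefSeq windows of this length, and 2 CpG dinucleotides, where the median window has 6. None of the 6 motifs stood in the Serpina3n window, which held 1 CpG. The outer Serpinb6a window held 20 CpG, 2 matches to GGGCGG (in 32.7% of windows) and 1 to TTCNNNGAA (in 7.02%). That of the inner Serpinb6a start site, not shown, held 2 CpG and 1 CCAAT, with no match to the other motifs. TATAAA stood in 12.4%, TGANTCA in 6.75% and CACGTG in 6.02% of all windows. A match is a match of letters only, and no match says only that these letters are not in the window.

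Of the 6 inhibitors Serpinf1, Serpina3n and Serpinb6a rose in KO, neither Serpinb9 nor Tfpi was called, and Tfpi2 was all but undetected. Over all genes tested 63.5% were called, 32.6% higher and 30.9% lower, so a call by itself sets no gene apart in these data. Rises of at least 1 on the log2 scale were rarer, at 6.24% of genes tested, and the 3 called members were among them. In each of those 3 the 6 KO values lay above the 6 WT values, as they did for 23.8% of genes tested. As the members were chosen with earlier results known, these shares do not show how unusual the set is. Without KO replicates 5 and 6, 39.9% of genes tested were called higher and 37.1% lower, and of the 5 tested members 4 were higher (Serpinb9 among them) and Tfpi was lower. Serpinf1 passed the threshold for testing through its KO libraries alone and so had to differ. As these are bulk cultures, more cells that express a gene and more RNA per cell cannot be told apart.

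**Figure D1:**
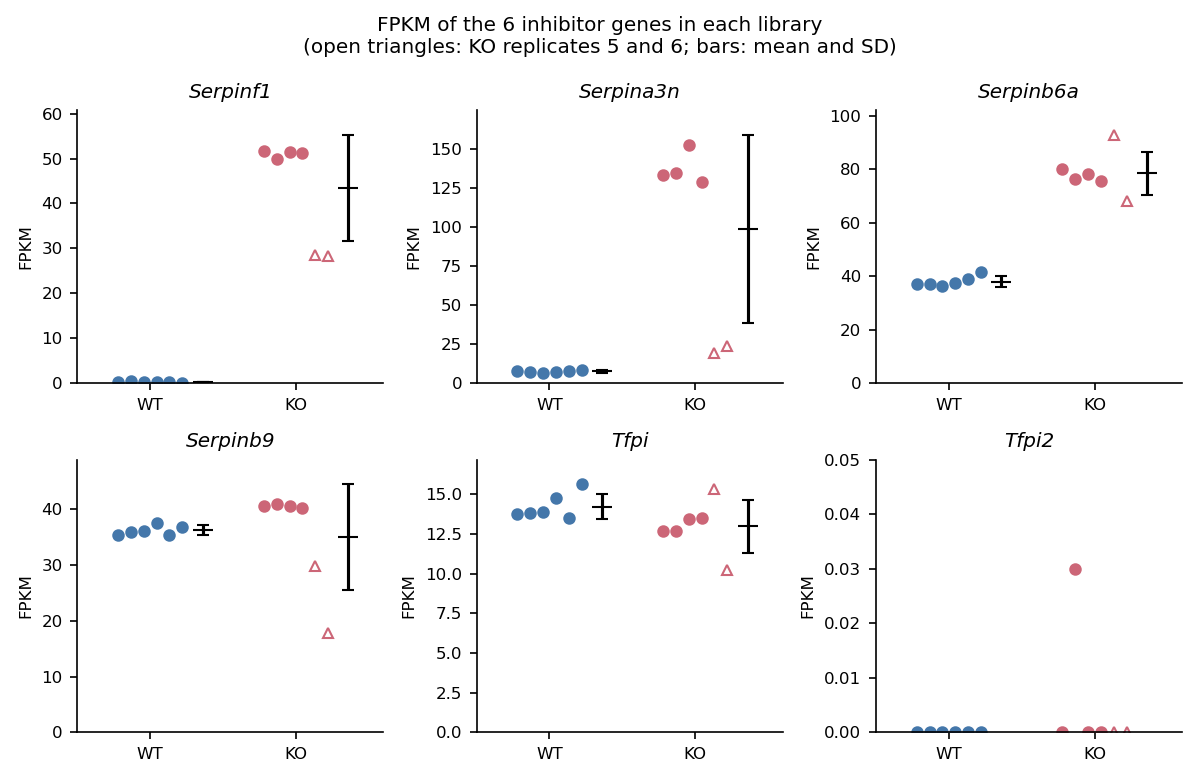
FPKM (vertical axes, linear from 0) of each inhibitor gene in 6 WT and 6 KO libraries; every point is a library, open triangles are KO replicates 5 and 6, and bars give mean and SD (not drawn for Tfpi2). All KO libraries lie above all WT libraries for Serpinf1, Serpina3n and Serpinb6a, and the groups overlap for the other 3.

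Serpinf1 encodes pigment epithelium-derived factor, a secreted glycoprotein with the serpin fold that inhibits no known protease and is known as an inhibitor of blood vessel growth. The gene occupies bases 75409769 to 75422701 of chromosome 11, minus strand (GRCm38, GENCODE M21, as for all gene positions here). In WT it stood at 0.23, 0.36, 0.24, 0.17, 0.25 and 0.1 FPKM. The KO libraries held 51.64, 49.9, 51.47, 51.16, 28.48 and 28.21. No KO library came near the WT range, and KO replicates 5 and 6 were lower than the other 4. Mean levels were 0.225 ± 0.0869 and 43.5 ± 11.7 FPKM (SD, n = 6 each), a 193-fold difference, and the change of log2(FPKM + 1) was 5.14 (95% interval 4.79 to 5.49, limma adjusted p = 1.23e-11). That change ranks 7 in size among the 11831 genes tested. With KO replicates 1 to 4 only, the log2 change was 5.41.

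Of genes named as receptors or binding partners of this factor, Plxdc2, a membrane protein, rose from 0.00667 ± 0.00816 to 7.25 ± 1.02 FPKM (limma adjusted p = 1.52e-12). WT libraries held at most 0.02 FPKM of it and KO libraries at least 5.7. Rpsa, the ribosomal protein also described as a laminin receptor, fell from 376.5 ± 9.37 to 324.5 ± 25.2 FPKM (adjusted p = 0.00304), with overlap between the genotypes. Pnpla2, a triglyceride lipase, was at 7.97 ± 0.26 and 7.48 ± 1.12 FPKM and Lrp6, a Wnt co-receptor, at 10.6 ± 0.367 and 9.4 ± 1.73; neither was called. The list also held endocytic receptors that clear serpin complexes. Among its 8 tested genes 4 were higher (50%) and 2 lower (25%), beside 32.6% and 30.9% of all genes, and the median log2 change was 0.12 beside 0.01 for all genes. Plxdc2 passed the threshold through KO alone. Atp5b, an ATP synthase subunit, rose from 179.2 ± 5.87 to 224.9 ± 21.5.

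Serpina3n encodes a secreted acute-phase serpin related to human antichymotrypsin and known to inhibit granzyme B and leukocyte elastase. It lies on chromosome 12, from 104406729 to 104414329 on the plus strand. WT libraries 1 to 6 held 7.8, 7.35, 6.22, 6.85, 7.93 and 8.38 FPKM. In KO the values were 133.11, 134.19, 152.07, 128.51, 19.29 and 23.47. KO replicates 1 to 4 formed a tight high set, and KO replicates 5 and 6 lay far below them yet above every WT library. The mean went from 7.42 ± 0.787 to 98.4 ± 60.2 FPKM (13.3-fold, log2 change 3.16, 95% interval 2.1 to 4.22, limma adjusted p = 8.44e-05). Without KO replicates 5 and 6 the log2 change was 4.04 and the fold 18.5, so its size depends on these libraries.

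The gene belongs to a cluster of close relatives on chromosome 12, and the reads of such copies can be exchanged in counting. Of the 31-base words in the Serpina3n transcript, 21.6% also occurred in transcripts of another gene, at most 5.9% in any single gene (Serpina3f and Serpina3g). Of 7 relatives with a row 3 could be tested, and Serpina3g, Serpina3i and Serpina3h rose as well. Serpina3g, an intracellular relative, spanned 2.42 to 4.88 FPKM across WT and 41.61 to 49.71 across KO replicates 1 to 4, with 13.62 and 14.27 for KO replicates 5 and 6 (log2 change 2.91, adjusted p = 3.81e-06). Serpina3i ranged from 0.82 to 1.48 FPKM in WT and from 6.73 to 7.84 in KO replicates 1 to 4, while the other KO libraries held 1.46 and 1.49 (log2 change 1.43, adjusted p = 0.00197). Serpina3h held 0.67 to 1.16 FPKM in WT, then 2.18 to 3.38 and, in the 2 outlying KO libraries, 1 and 0.86 (log2 change 0.65, adjusted p = 0.0143). In the last 2 genes KO replicates 5 and 6 fell within or close to the WT range. Shared words made up 28.4% of Serpina3g, 27.3% of Serpina3i and 39.8% of Serpina3h, so the levels of these 3 are uncertain. The ratio of Serpina3n to Serpina3g spanned 1.72 to 3.04 across WT libraries and 2.85 to 3.2 across KO replicates 1 to 4, with 1.42 and 1.64 for KO replicates 5 and 6. Its difference between genotypes did not pass an exact two-sided permutation test (p = 0.814, adjusted 0.814 over the 4 ratios compared).

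Along chromosome 12, 19 serpin genes had a row, from Serpina10 to Serpina3n, and only the 4 named could be tested. Those upstream of the Serpina3 group were close to 0 in both genotypes. Serpina9, with the highest KO mean among these chromosome 12 genes outside that group, had means of 0.148 FPKM in WT and 0.168 in KO. Serpina3f, below the threshold, had means of 0.207 and 0.718 FPKM and Serpina3m 0.0633 and 0.277.

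**Figure D2:**
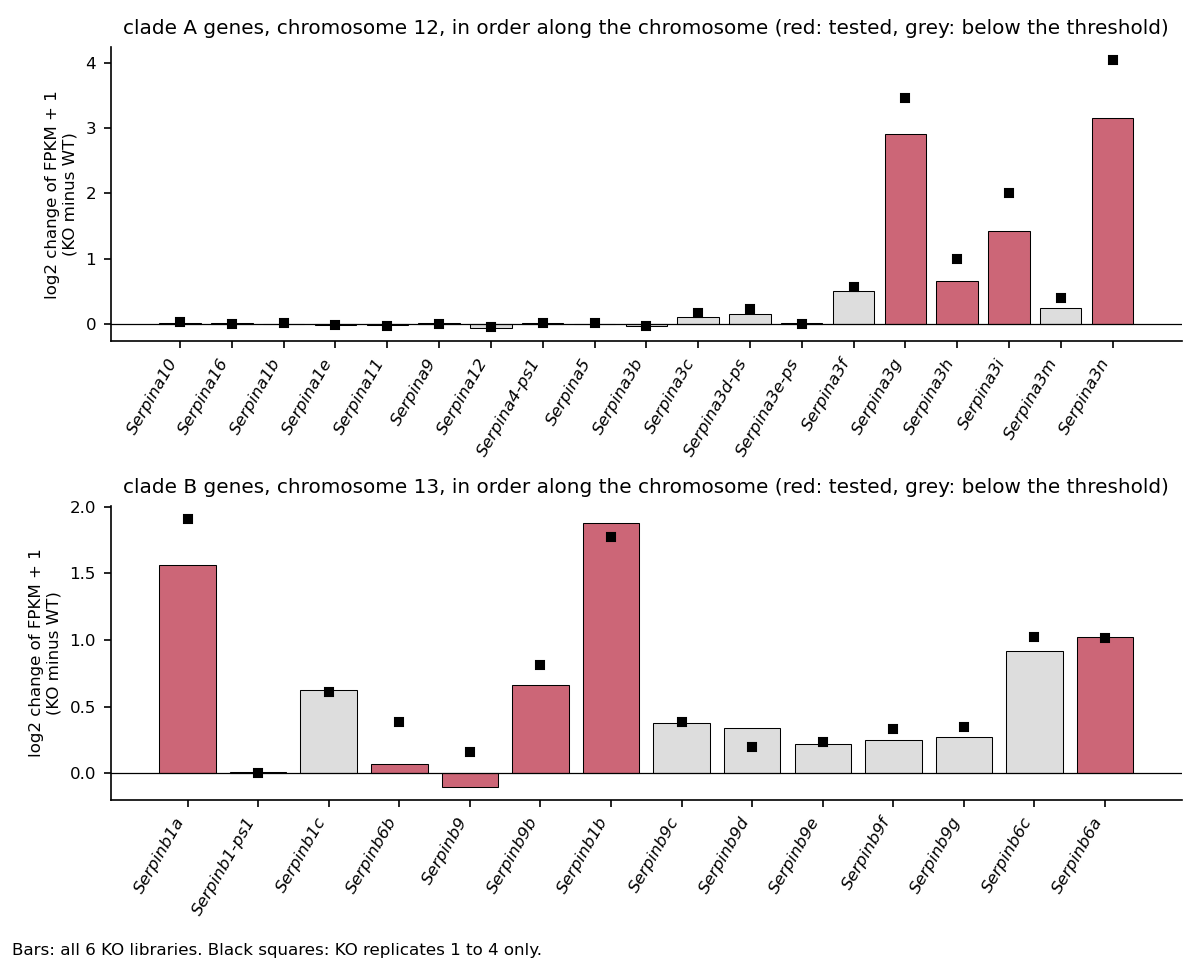
Log2 change of FPKM + 1, KO minus WT (vertical axes), of serpin genes in their order along chromosomes 12 and 13; bars use all KO libraries (red, tested; grey, below the threshold) and black squares KO replicates 1 to 4 only. On chromosome 12 the changes stand at the Serpina3 end, where Serpina3n reaches 3.16, and on chromosome 13 Serpinb9 is the single gene below 0, at -0.1, with its square above 0.

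The upstream windows of Serpina3n, Serpina3i and Serpina3g resemble one another in a stretch that is shown here because these genes belong to 1 cluster and were called in the same direction; Serpina3h and Serpina3m lie between them. Capitals mark the longest run of letters present in all 3 windows, 10 bases, with 20 bases on each side; the run was picked by comparing these windows and occurs on either strand in 0.0791% of the 32851 windows. The stretches are chr12:104406568-104406617, chr12:104263003-104263052 and chr12:104236097-104236146 in GRCm38.p6, all on the plus strand.
Serpina3n: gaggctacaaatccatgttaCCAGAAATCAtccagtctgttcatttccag
Serpina3i: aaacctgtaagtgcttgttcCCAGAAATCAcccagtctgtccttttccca
Serpina3g: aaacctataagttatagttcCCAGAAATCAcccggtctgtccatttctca
In Serpina3i and Serpina3g the start of the run overlaps a match to TTCNNNGAA, the letters of a STAT site, which begins before it; the Serpina3n window has no such match. Over the whole 250 bases the Serpina3n window was 63.1% identical to that of Serpina3i and 47% to that of Serpina3g. Windows of the other members gave 48.4% to 51.9%.

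Serpinb6a and Serpinb9 encode serpins of clade B, which lack a signal peptide and act inside the cell. Serpinb6a inhibits cathepsin G, and Serpinb9 inhibits granzyme B and is known for shielding cells from cytotoxic lymphocytes. Both lie in a cluster on chromosome 13, Serpinb9 from 33003250 to 33017957 on the plus strand and Serpinb6a from 33917918 to 34002794 on the minus strand, about 900 kb apart. Inside the same cluster 1 rose and the other was not called.

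Serpinb6a was at 36.91, 36.94, 36.25, 37.26, 39.03 and 41.56 FPKM in WT. KO libraries held 80.22, 76.53, 78.08, 75.51, 92.79 and 68.08. The lowest KO library thus lay well above the highest WT library, and here KO replicates 5 and 6 were the highest and the lowest of their group. Means were 38 ± 1.98 and 78.5 ± 8.11 FPKM (2.07-fold, log2 change 1.02, 95% interval 0.88 to 1.17, limma adjusted p = 2.51e-08). The change was 1.01 without KO replicates 5 and 6. Its locus overlaps Nqo2, Ripk1 and the antisense gene 1110046J04Rik on the opposite strand, with WT means of 7.35, 5.66 and 0.418 FPKM and KO means of 13, 9.26 and 0.76, higher in KO as Serpinb6a was; their part in its change was not tested. The libraries marked strand, but no source used here says whether counting used it, so part of the signal cannot be assigned with certainty; 18.3% of the 31-base words of Serpinb6a occur on some strand of another gene's transcripts, 10.9% in the antisense gene.

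Serpinb9 stood at 35.42, 35.91, 36.19, 37.62, 35.33 and 36.88 FPKM in WT. The KO libraries held 40.68, 40.9, 40.56, 40.21, 29.83 and 17.78. KO replicates 1 to 4 were all above the WT range and KO replicates 5 and 6 both below it. With all libraries the means were 36.2 ± 0.886 and 35 ± 9.47 FPKM and the log2 change -0.1 (95% interval -0.47 to 0.27, limma adjusted p = 0.623). The interval leaves room for changes of either sign. Left without KO replicates 5 and 6, the gene was called higher in KO, with a log2 change of 0.16 (95% interval 0.11 to 0.22, adjusted p = 8.65e-05).

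The relatives of both genes did not all follow them. Serpinb9b, a close relative of Serpinb9, rose from 31.5 ± 1.47 to 51.3 ± 8.78 FPKM without overlap (log2 change 0.67, adjusted p = 0.000121). Per library it stood at 0.818 to 0.943 times the level of Serpinb9 in WT and at 1.33 to 1.94 times in KO (exact permutation p = 0.00216, two-sided, the smallest that 6 libraries against 6 can give; 0.00288 adjusted over the 4 ratios compared). The 2 genes share few words: 3.79% of those of Serpinb9 occur in Serpinb9b. Serpinb9c, Serpinb9d, Serpinb9e, Serpinb9f and Serpinb9g were at no more than 0.04 FPKM in any WT library and reached at most 0.6 in KO. Serpinb6b had the highest mean of the clade B genes of the cluster in both genotypes, but in KO replicates 5 and 6 Serpinb6a was higher. WT libraries held 69.73 to 86.38 FPKM of it and KO replicates 1 to 4 held 99.09 to 104.51, while KO replicates 5 and 6, with 57.02 and 48.28, lay below WT as they did for Serpinb9 (log2 change 0.07, adjusted p = 0.75; 0.38 and 2.16e-05 without KO replicates 5 and 6). The ratio of Serpinb6b to Serpinb6a was 1.89 to 2.17 in WT and 0.615 to 1.37 in KO (exact permutation p = 0.00216, adjusted 0.00288). Serpinb6a alone did not overlap between the genotypes, so this p adds little to its call. Serpinb6c, below the threshold for testing, had means of 0.0917 FPKM in WT and 1.08 in KO.

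**Figure D3:**
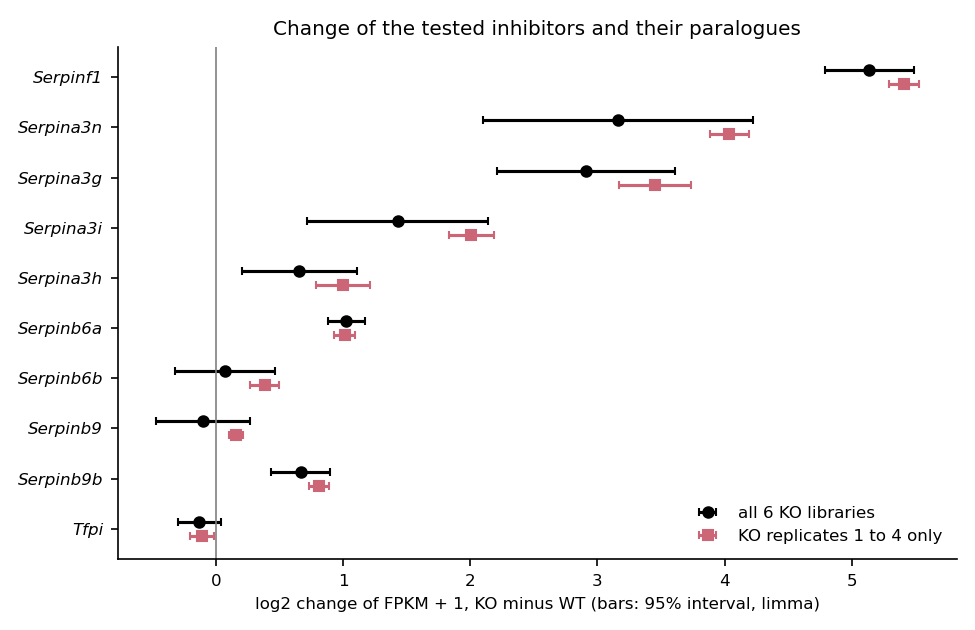
Log2 change of FPKM + 1 (horizontal axis, KO minus WT) with 95% intervals from limma for the tested members and their tested relatives, with all KO libraries (black circles) and with KO replicates 1 to 4 only (red squares). The intervals of Serpina3n narrow from 2.1 to 4.22 to 3.88 to 4.19 when KO replicates 5 and 6 are left out, and Serpinb9 moves from -0.1 to 0.16.

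Tfpi encodes tissue factor pathway inhibitor, a secreted and cell-bound protein with Kunitz domains that blocks factor Xa and the complex of tissue factor with factor VIIa, the start of coagulation. Its place is chromosome 2, bases 84432855 to 84476775 of the minus strand. WT libraries held 13.77, 13.83, 13.86, 14.73, 13.5 and 15.61 FPKM, and KO libraries 12.66, 12.69, 13.44, 13.51, 15.33 and 10.22. The ranges overlapped, with KO replicates 5 and 6 as the highest and the lowest KO library. The means of 14.2 ± 0.799 and 13 ± 1.66 FPKM gave a log2 change of -0.13 (95% interval -0.3 to 0.04, limma adjusted p = 0.164). It was called lower without KO replicates 5 and 6, at -0.11 (adjusted p = 0.0296), without KO replicate 5 alone (adjusted p = 0.0405) and with quantile normalization (-0.21, adjusted p = 0.0188). Over the alternatives run the change lay between -0.21 and -0.068.

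Tfpi2 (chromosome 6, bases 3962595 to 3988919, minus strand) encodes another Kunitz protein, which sits in the matrix and inhibits plasmin and trypsin. It was listed at 0 in every library except KO replicate 2, which held 0.03 FPKM (exact permutation p = 1). No level or fold can be drawn from that value. Among the 3 RefSeq windows of this gene the one with the most CpG held 11.

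Tissue factor, which Tfpi restrains, is encoded by F3. This gene rose from 3.38 ± 0.339 to 33.3 ± 4.15 FPKM (9.85-fold, log2 change 2.96, limma adjusted p = 3.05e-12), with KO replicates 5 and 6 highest at 39.59 and 37.5. The ratio of F3 to Tfpi was 0.215 to 0.26 in the WT libraries and 2.21 to 3.67 in the KO libraries. F3 alone did not overlap between the genotypes, at 3.02 to 3.95 FPKM in WT and 29.79 to 39.59 in KO. Tfpi was not called with all libraries. The exact permutation p of the ratio, 0.00216 (adjusted 0.00288), thus only restates the rise of F3. F7, factor VII, was listed at 0 in all WT libraries and reached 0.08 FPKM in KO. Thbd, thrombomodulin, which turns thrombin into an activator of protein C, went from 0.105 ± 0.0302 to 34.6 ± 14 FPKM (adjusted p = 1.99e-09). Procr, the endothelial protein C receptor, rose from 5.86 ± 0.606 to 15.7 ± 3.39 FPKM and F2r, a thrombin receptor, from 33.1 ± 1.25 to 72.5 ± 7.34. Pros1, protein S, a cofactor of Tfpi that was singled out after its values were seen, rose from 19.9 ± 0.829 to 39.4 ± 11.7 FPKM, although KO replicate 6 at 20.96 lay within the WT range. Of 7 coagulation genes tested 5 were higher (71.4%) and none lower, beside 32.6% and 30.9% of all genes tested. Ggcx and Vkorc1 of the vitamin K cycle were not called, and Thbd passed the threshold through KO alone. Without KO replicates 5 and 6 Vkorc1 was called higher as well (0.38, limma adjusted p = 1.83e-06). That made 6 of 7, beside 39.9% of all genes tested. The median log2 change of the 7 was 1.1 with all libraries.

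**Figure D4:**
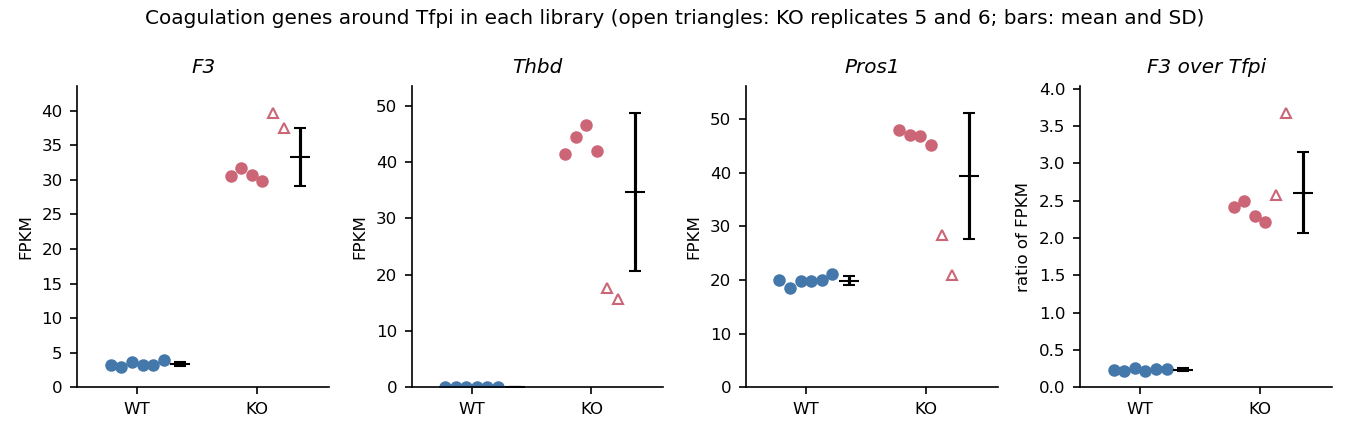
FPKM of F3, Thbd and Pros1 and the ratio of F3 to Tfpi (vertical axes, linear from 0) in each library; open triangles are KO replicates 5 and 6, and bars give mean and SD. The ratio stays at or below 0.26 in WT and at or above 2.21 in KO, while Thbd and Pros1 are lower in KO replicates 5 and 6 than in the other KO libraries.

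Other genes of both inhibitor families were examined from a fixed list. Of 27 further serpins with a row 7 were tested, and Serpinb8 was not called. Of the 7, 6 were higher (85.7%) and none lower, beside 32.6% and 30.9% of all genes tested. Among the 6 higher, 3 passed the threshold through KO alone and so had to differ, Serping1 and Serpinb1b among them. Serping1, the complement C1 inhibitor, rose from 0.422 ± 0.0806 to 39.2 ± 19.2 FPKM (limma adjusted p = 4.88e-08), and Serpinb1a, named here as a neighbour in the chromosome 13 cluster, from 12.1 ± 0.872 to 39.7 ± 13. Serping1 was split like Serpina3n, with 49.37 to 54.19 FPKM over KO replicates 1 to 4 and 14.06 and 15.05 for KO replicates 5 and 6. Serpinb1b rose from 0.463 ± 0.0771 to 4.42 ± 0.765 FPKM. Serpinh1, the collagen chaperone, with the highest mean of the list over all libraries, rose 1.43-fold from 189.3 ± 3.89 to 271.7 ± 5.09 FPKM. The remaining 20 were below the threshold, at no more than 0.85 FPKM in any library.

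Kunitz genes other than Tfpi and Tfpi2 went both ways. Of 10 with a row 5 were tested, and App was not called. Of the 5, 2 were higher (40%) and 2 lower (40%), beside 32.6% and 30.9% of all genes tested. Aplp2, a membrane protein related to App, fell from 61.7 ± 3.83 to 31.5 ± 5.4 FPKM (limma adjusted p = 2.79e-06), without overlap. Col28a1 fell from 2.44 ± 0.509 to 1.16 ± 0.806 FPKM. Col6a3 and Col7a1, collagen chains that end in a Kunitz domain, rose from 0.752 ± 0.0842 to 2.63 ± 0.886 and from 0.448 ± 0.0725 to 1.28 ± 0.197 FPKM, and both passed the threshold through KO alone. Spint2, a membrane-bound Kunitz inhibitor of hepatocyte growth factor activator, stayed below it at no more than 0.51 FPKM. In this list the median log2 change was -0.18 (0.05 without KO replicates 5 and 6).

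Proteases that these inhibitors are known to block were near 0. Of 12 listed, 5 had a row (Cma1, Prtn3, Klkb1, Prss2 and F7), none could be tested, and the highest value in any library was 0.17 FPKM.

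Markers of other cell types moved between the genotypes too. Of the 9 leukocyte genes listed 8 had a row and 3 were tested: Cd68 rose from 1.62 ± 0.305 to 8.19 ± 2.62 FPKM and Csf1r from 0.707 ± 0.0924 to 3.05 ± 0.326 (past the threshold through KO alone), while Cd14 was not called (without KO replicates 5 and 6 it was higher, at 0.11, adjusted p = 0.0463). Lyz2, below the threshold, had means of 0.1 and 1.07 FPKM without overlap. The summed level of the list, most of it Cd14 at 36.85 to 44.95 in WT, was 39.13 to 47.04 FPKM in WT and 41.19 to 57.28 in KO, with Ptprc at no more than 0.04 and Adgre1 at no more than 0.02 in any library. Fibroblast genes, 7 with a row and 5 tested, added up to 830 to 879.5 FPKM over WT libraries and 1034 to 1120 over KO replicates 1 to 4, with 484.7 and 696.7 for KO replicates 5 and 6. Pdgfra and Dpt rose (Dpt past the threshold through KO alone) and Col1a2 fell, and Lum and Pi16 were at most 0.09 FPKM. Dcn, decorin, lay apart in the same order as Serpinb9 and Serpinb6b: WT libraries held 62.25 to 79.26 FPKM, KO replicates 1 to 4 held 131.51 to 151.34, and KO replicates 5 and 6 held 26.69 and 22.08. Dcn and Col1a1 were called higher only without KO replicates 5 and 6 (1.02 and 0.53, limma adjusted p = 2.56e-08 and 7.19e-09). Smooth muscle genes added up to 123.9 to 152.4 FPKM over WT libraries and 86.41 to 95.9 over KO replicates 1 to 4. In KO replicates 5 and 6 the sum was 155 and 168.6 FPKM. Most of the sum in every library was Acta2, at 111 to 140.4 FPKM in WT and 75.28 to 145.52 in KO. Epithelial and mesothelial genes summed to 146 to 154.8 FPKM in WT and 44.55 to 67.87 in KO. Of 5 tested 3 were lower (60%) and 2 higher (40%), beside 30.9% and 32.6% of all genes tested. Both higher genes (Upk3b and Wt1) passed the threshold through KO alone. Most of the fall of their sum was Cdh1, E-cadherin, which went from 65 ± 1.69 to 0.86 ± 0.314 FPKM. Krt19, a keratin gene and the most abundant of this list, fell from 78.5 ± 3.54 to 50.1 ± 6.25 FPKM, without overlap. Endothelial genes summed to at most 0.94 FPKM. The part of these markers in the changes of the inhibitors was not tested.

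Genes most like each called member over the 12 libraries were found by the root mean square difference of z-scored log2(FPKM + 1). Closest to Serpinf1 were Colec12 (0.0307), Ptges (0.0364) and Gpnmb (0.0366), each near 0 in WT, as was Serpinf1. Serpina3n was followed most closely by Efemp1 (0.0656), Glul (0.0675) and Cpxm1 (0.0679). Efemp1 had means of 71.7 FPKM in WT and 447.8 in KO replicates 1 to 4, with 115.68 and 125.43 in KO replicates 5 and 6. For Serpinb6a they were Ccl7 (0.0884), S100a4 (0.0971) and Pgrmc1 (0.1), all of which had KO replicate 5 above KO replicate 6.

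Summed over the 6 inhibitors, WT libraries held 92.76 to 102.53 FPKM, KO replicates 1 to 4 held 308.9 to 335.62, and KO replicates 5 and 6 held 185.72 and 147.76. In WT the order of mean level was Serpinb6a, Serpinb9, Tfpi, Serpina3n, Serpinf1 and Tfpi2, and Serpinb6a and Serpinb9 overlapped in range. In KO it was Serpina3n, Serpinb6a, Serpinf1, Serpinb9, Tfpi and Tfpi2. Because Serpina3n spanned 19.29 to 152.07 FPKM in KO, it did not part from Serpinb6a, Serpinf1 or Serpinb9 beyond its spread, and Serpinf1 and Serpinb9 overlapped too. In the authors' deposited table, whose log2 ratio is WT over KO, Serpinf1 (-7.61), Serpina3n (-3.73) and Serpinb6a (-1.05) were marked significant, and Serpinb9, Tfpi and Tfpi2 were not, with q-values of 0.84, 0.21 and 0.77.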

How the data were processed

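RNA of 12 libraries, 6 WT and 6 KO by the genotype in their titles, was purified on oligo(dT), with strand marking and paired-end sequencing, per the labels' protocols. Per the submitters' processing notes, which state no roles, the build was mm9 and the tools included StringTie 1.3.4d, edgeR, HISAT2 2.0.4, DESeq2 and cutadapt 1.9. The deposited values are FPKM made by the authors. The same deposited table holds the authors' ratio of WT over KO, its log2, and a p-value and q-value, whose test no source used here states.

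From the FPKM, the 11831 genes that reached 1 FPKM in 6 or more libraries were tested on log2(FPKM + 1) with limma 3.58.1 in R 4.3.3, a trend of variance on mean, genotype as the only term, and Benjamini-Hochberg adjustment over all genes, two-sided, at 0.05. Tfpi2, Cth and ratios had an exact two-sided permutation test. Changes on this scale understate those of low genes. The fit was also run on simulated data with few changed genes and independent noise, unlike these data, so no assurance is drawn from it. Since FPKM is relative, a gene that takes a larger share lowers others. Gene positions are those of GENCODE M21 and promoters those of RefSeq, both GRCm38, not the build in the notes.

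The members, lists and motifs were chosen with earlier results of these data known. Named genes are the members, Cth, the up to 4 called genes with the smallest p and the most abundant of each list, tested relatives, and 3 like genes per member called with a change of at least 1; Pros1, Serpinb1a, Dcn, Serpina9 and others outside this rule were chosen after their values were seen. A few listed genes are counted but not reported by name. Alternatives were a pseudocount of 0.1, no filter or 5 FPKM, median-ratio, TPM and quantile scaling, a replicate block, each library left out, and KO replicates 1 to 4 only. For the tested members the exact permutation test was a further alternative, with its p not adjusted.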

Additional observations from a re-analysis of the deposited data

Results flagged for a closer look

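In 52 genes, the members and tested genes of their lists, 103 groups of 6 libraries were searched for a library separated from the others by a gap that is large for the range of its group; chance marks about 1 in 20 groups, and 5 were marked. Tfpi2 in KO replicate 2 was at 0.03 FPKM with the other KO libraries at 0. Rpsa was at 373.8 FPKM in KO replicate 5, where the others held 304.84 to 323.85. Il6 stood at 8.84 FPKM in KO replicate 5 against 5.48 to 6.35. Il6ra was at 2.9 FPKM in KO replicate 6 against 2.02 to 2.32. Lifr was at 0.53 FPKM in WT replicate 3 against 1.3 to 1.56. Of the 6 inhibitors only Tfpi2 was marked in this search; where KO replicates 5 and 6 lie apart together, as in Serpina3n, a search for a single library does not mark them.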

How the results depend on the processing

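Serpinf1, Serpina3n and Serpinb6a kept their direction and their call in each of 21 alternatives, with log2 changes of 4.88 to 7.06, 2.96 to 4.04 and 0.89 to 1.06. Among the alternatives was the exact permutation test, which reused the main log2 change. As these genes did not overlap between the genotypes, its p of 0.00216 was fixed and adds nothing. Serpinb9 changed sign with KO replicates 1 to 4 only (0.16) and lay between -0.16 and 0.074 when single libraries were left out, above 0 without KO replicate 6. Tfpi was called with quantile normalization (-0.21) and with KO replicates 1 to 4 only (-0.11), and lay between -0.18 and -0.068 when single libraries were left out. Apart from the fewer or more genes tested, the cause was not tested. At 5 FPKM, 2505 genes were called higher and 2270 lower, with 1 Serpina3 relative and 0 Kunitz genes higher and 1 Kunitz gene lower. With no filter 5547 genes were called higher and 4484 lower. Among them 1 Serpinb6 and 6 Serpinb9 relatives were higher and 2 other serpins lower. All of those Serpinb9 relatives but Serpinb9b were near 0, at no more than 0.04 FPKM in WT and 0.6 in KO. The counts with either filter carry no share of all genes tested, so nothing about the relatives is read from them. With KO replicates 1 to 4 only, the 1 tested Serpinb6 relative and 10 of 16 acute-phase genes were higher, beside 39.9% of all genes tested. Of 466 recomputed values 451 kept their direction and their side of the threshold or, for counts, stayed within 1.5 times the reported count. Many of these were counts of 0 that stayed at 0, so this share says little about how firm the results are. Libraries of 1 number did not deviate together (correlations of -0.27 to -0.06). The deviations of KO libraries include the gap of KO replicates 5 and 6, so this cannot exclude a weak pairing. With the number as a block 3610 genes were higher and 3349 lower. The change of Serpina3n stayed at 3.16 (limma adjusted p = 0.000682), and no call of a member changed. Tfpi2 could be fitted only without a filter (0.01, adjusted p = 0.528). Depth in reads is unknown, which limits what can be said of genes near 0.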

Other observations

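Genes of the acute phase response and of the interleukin-6 family, whose signal through STAT3 is known to raise acute-phase serpins such as Serpina3n in liver, went both ways. Of 16 tested 6 were higher in KO (37.5%) and 4 lower (25%), beside 32.6% and 30.9% of all genes tested. Without KO replicates 5 and 6, 10 of the 16 were higher and 4 lower, beside 39.9% and 37.1% of all genes tested. Lcn2, lipocalin, fell from 238.8 ± 19.4 to 41.4 ± 25.7 FPKM (limma adjusted p = 0.000172) and C3, the complement protein, from 365.6 ± 44.9 to 176.4 ± 98.5 (adjusted p = 0.0145), with KO replicates 5 and 6 at 8.3 and 8.67 for Lcn2 and at 37.64 and 63.93 for C3. Saa3, serum amyloid, was at 213.5 ± 27.6 and 160.7 ± 66.3 FPKM and was not called. In these 3 genes, as in Serpina3n, KO replicates 5 and 6 were the lowest KO libraries. Other genes of the list differed. In Lif they were the highest, at 7.25 and 8.33 FPKM against 4.37 to 5.13 in KO replicates 1 to 4. In Il6 KO replicate 5 was the highest KO library, at 8.84. How often either order occurs over all genes was not counted.

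The receptor gene Lifr rose from 1.26 ± 0.369 to 11.1 ± 3.37 FPKM (limma adjusted p = 1.84e-07), and its ligand gene Lif from 2.56 ± 0.216 to 5.75 ± 1.64. Il6 itself rose from 4.11 ± 0.293 to 6.34 ± 1.26 FPKM (limma adjusted p = 0.000348), without overlap. Il11ra1 and Jak1 were called higher too (limma adjusted p = 0.000284 and 0.00479). The transcription factor gene Cebpd fell from 65 ± 4.15 to 27.3 ± 5.05 FPKM, and Stat3 fell from 37.5 ± 2.01 to 30.7 ± 5.05 (adjusted p = 0.0204). Socs3, a feedback inhibitor induced by this pathway, rose from 30.7 ± 1.81 to 55.6 ± 15.7 FPKM (adjusted p = 0.00115), with 33.54 and 37.53 in KO replicates 5 and 6 against 64.07 to 67.32 in the others. Its lowest KO library lay just above its highest WT library, at 33.11.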
